A study of Mus musculus with 36 samples.

Results

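The Z-disc and stretch-sensing genes described here were Tcap, Ankrd1, Ankrd2, Csrp3, Actn2, Actn3, Myoz1, Myoz2, Myoz3 and Ldb3. They were chosen by name, as the rows of both count tables whose Ensembl ID carries 1 of these symbols, and made up 10 of the 51912 gene IDs. All 10 passed the filter on low counts in every comparison. RNA-seq compared the tibialis anterior (TA), a mouse hindlimb muscle made mainly of fast fibers, with the soleus, which is rich in slow fibers. Both muscles came from male C57BL/6 mice aged 3 months. The mice were either wild type (WT) or ∆Ig3-MuSK, a line made with CRISPR-Cas9 in which both copies of Musk lack exons 6 and 7, which encode the BMP-binding immunoglobulin-like domain Ig3 of this muscle receptor. The deletion is in the germline and therefore present in every cell of the animal. The 2 genotypes and 2 muscles gave 4 groups with 9 whole-muscle libraries in each, 36 in all.

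The Z-disc is the plate at each end of a sarcomere in which actin filaments of opposite polarity are anchored, and the N-terminus of the giant protein titin is fixed there. The α-actinins cross-link the actin, telethonin (Tcap) joins titin molecules, and a layer of adaptor proteins (the myozenins, muscle LIM protein and the LIM-domain protein ZASP) binds the α-actinins, calcineurin and kinases. The muscle ankyrin repeat proteins Ankrd1 and Ankrd2 bind titin in the elastic part of the sarcomere and can enter the nucleus. Transcripts of both ankyrin repeat genes and of Csrp3 are known to respond to stretch and loading of muscle, and fast and slow fibers are known to use different α-actinin and myozenin genes.

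The stretches before the transcription starts of 4 members are shown because these genes bear the main contrasts: Ankrd2, Csrp3 and Myoz2 had far higher levels in the soleus, and Ankrd1 did not. They were taken from RefSeq (GRCm38.p6), whose table holds 6 of the 10 members. Each is 250 bases long, 5′ to 3′ and ends at the base before the RefSeq start. The Ensembl gene models start elsewhere: the Ankrd1 stretch lies wholly (250 bases) inside the Ensembl span of the gene, the Ankrd2 and Myoz2 stretches overlap theirs by 27 and 28 bases, and the Csrp3 stretch does not. Capitals mark matches on either strand to the E-box CANNTG, which myogenic factors such as MyoD recognize, to the MCAT element CATTCC, which TEAD factors recognize, to the MEF2 site, to the CArG box of serum response factor, or to the TATA box TATAAA.
Ankrd1 (chr19:36119845-36120094, minus strand): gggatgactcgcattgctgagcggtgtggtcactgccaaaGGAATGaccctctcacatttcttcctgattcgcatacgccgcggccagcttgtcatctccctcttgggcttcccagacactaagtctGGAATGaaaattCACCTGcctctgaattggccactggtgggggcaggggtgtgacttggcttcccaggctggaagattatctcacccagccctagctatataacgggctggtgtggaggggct
Ankrd2 (chr19:42035777-42036026, plus strand): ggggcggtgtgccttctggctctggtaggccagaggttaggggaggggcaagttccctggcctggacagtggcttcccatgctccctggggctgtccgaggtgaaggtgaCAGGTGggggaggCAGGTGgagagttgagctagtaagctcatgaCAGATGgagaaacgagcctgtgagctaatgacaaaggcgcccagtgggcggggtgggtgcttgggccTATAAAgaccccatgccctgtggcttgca
Csrp3 (chr7:48848052-48848301, minus strand, the more upstream of 2 starts): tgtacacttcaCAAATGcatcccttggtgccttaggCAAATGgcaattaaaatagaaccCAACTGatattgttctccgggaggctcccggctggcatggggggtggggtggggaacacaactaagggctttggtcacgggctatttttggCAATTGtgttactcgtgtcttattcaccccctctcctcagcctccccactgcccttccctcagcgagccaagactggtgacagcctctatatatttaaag
Myoz2 (chr3:123034988-123035237, minus strand): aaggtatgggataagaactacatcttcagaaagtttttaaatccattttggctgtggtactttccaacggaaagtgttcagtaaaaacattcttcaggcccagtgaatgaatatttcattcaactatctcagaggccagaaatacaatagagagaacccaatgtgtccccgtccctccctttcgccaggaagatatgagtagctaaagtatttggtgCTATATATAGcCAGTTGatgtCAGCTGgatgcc
The Ankrd1 stretch held 2 MCAT elements, beginning 210 and 123 bases before the start, and 1 E-box. An MCAT element was present in 12.6% of the 32851 mouse promoters of the same length, and an E-box in 66.2%. The Ankrd2 stretch held 3 E-boxes, at 140, 127 and 96 bases, and a TATA box at 29 bases, which 12.4% of the promoters have. The Csrp3 stretch held 4 E-boxes, the nearest at 100 bases, and none of the other motifs. Myoz2 had a MEF2 site at 33 bases, found in 2.92% of all promoters, directly followed by 2 E-boxes at 22 and 12 bases. The starts listed for Ldb3 had a CArG box (1.47% of all promoters) and no E-box in these windows. A match to letters is not evidence that a factor binds.

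The total number of counted reads ranged from 43492062 to 78660422 per library, and the 10 members took between 0.86% and 1.24% of them. In the soleus, the median total was 45371395 in WT and 51110940 in ∆Ig3-MuSK, and in the TA the totals of the genotypes overlapped more, with medians of 66259327 and 65772531. Levels are given as CPM, a gene's reads relative to the total of its library, after scaling by TMM factors computed over the 36 libraries. Summed over 8 slow-fiber genes, including the slow myosin Myh7, the level was at most 215.0 CPM in any TA library and at least 21751 CPM in any soleus library, and all 8 were higher in the soleus in both genotypes, so the muscles matched their labels. Musk itself, counted over the whole gene, was 0.44 lower on the log2 scale in the ∆Ig3-MuSK soleus (log2 fold change -0.44 ± 0.133 SE, adjusted p = 0.0978) and 0.47 lower in the TA (log2 fold change -0.47 ± 0.117 SE, adjusted p = 0.135). Gene-level counts do not check the loss of 2 exons. Several libraries stood apart and are named where they touch a result. WT soleus replicate 1 had the highest summed level of 8 fast-fiber genes in the soleus, ∆Ig3-MuSK soleus replicate 8 had 0.249 CPM of the tendon gene Tnmd against 10.8 CPM or more in the other soleus libraries, and WT TA replicate 5 had the highest levels of several members in its group.

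The largest differences among these genes were between the muscles. In WT, 5 of the 10 members were called higher in the soleus than in the TA (Myoz2, Csrp3, Ankrd2, Actn2 and Tcap) and 3 were called lower (Actn3, Myoz1 and Myoz3). Ankrd1 and Ldb3 were not called. A gene was called at a Benjamini-Hochberg adjusted p under 0.05 in edgeR's quasi-likelihood test, adjusted over all genes tested, with at least a 1.2-fold change. Among all 20841 genes tested, 30.2% were called higher and 27.3% lower in the WT soleus, so a call by itself was common. Of the 10 members, 6 were both called and at least 4-fold apart, against 4.11% of all genes, and the 9 soleus and 9 TA libraries did not overlap for 7 members, against 28.3%. In ∆Ig3-MuSK muscle the same 5 members were called higher and the same 3 lower (28.5% and 27.6% of all genes), 5 members were called and at least 4-fold apart (4.25%), and 8 did not overlap (29.4%). The members include genes known to differ between fast and slow fibers, and were chosen with earlier results of these data known. The shares beside them are therefore a description and not a test of the set. In whole-muscle samples, fewer cells of a type and less RNA per cell cannot be told apart.

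**Figure D1:**
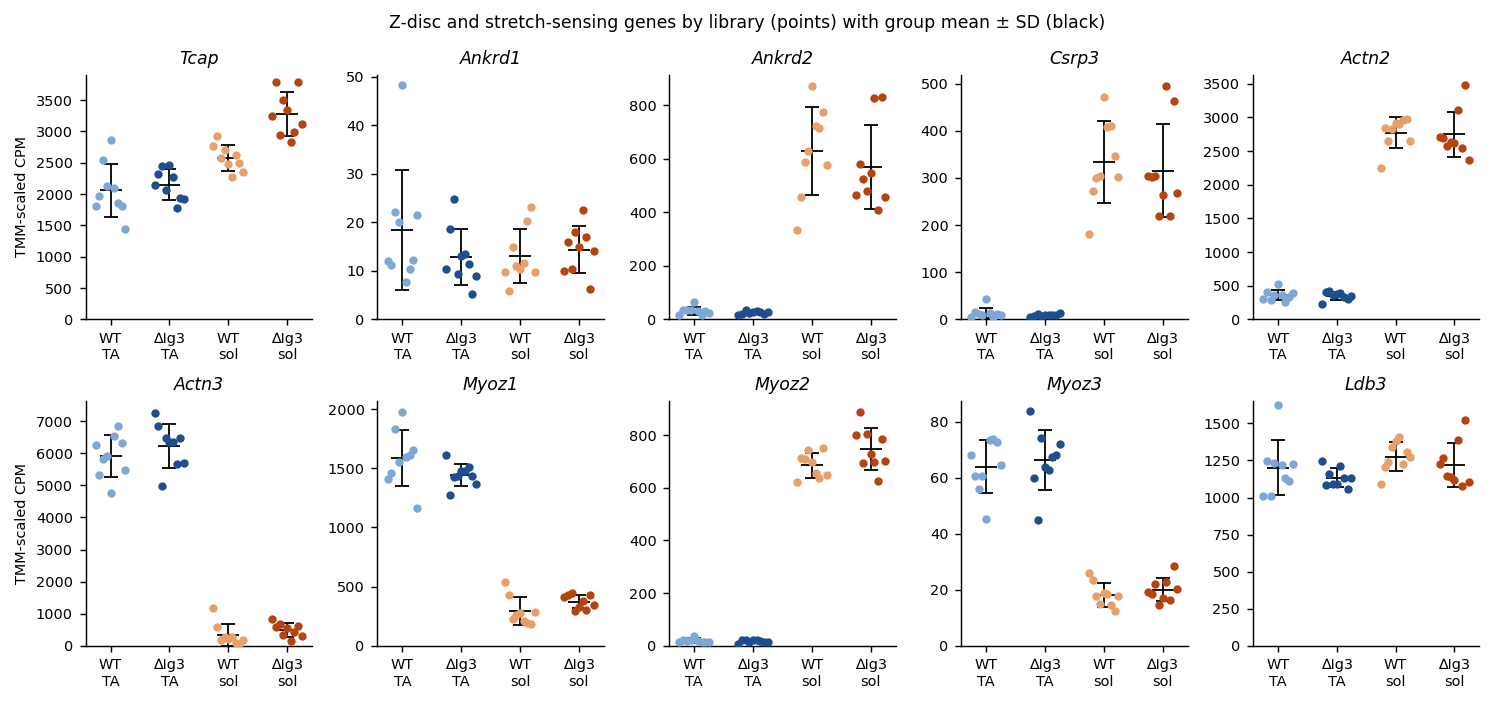
TMM-scaled CPM (y axis, linear, from 0) of each member in every library (points, 9 per group), with the group mean ± SD in black. The groups are WT and ∆Ig3-MuSK (∆Ig3) TA and soleus (sol). Ankrd2, Csrp3, Actn2 and Myoz2 sit high in both soleus groups, Actn3, Myoz1 and Myoz3 in both TA groups, and the ∆Ig3-MuSK soleus points of Tcap lie between 2835 and 3791 CPM.

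The α-actinins form the lattice that holds actin filaments in the Z-disc. Actn2 (chr13:12269426-12340760, minus strand) is found in all fiber types and Actn3 (chr19:4861216-4877909, minus strand) in fast fibers. Actn2 ranged from 265.0 to 532.4 CPM in the WT TA (median 366.2) and from 2252 to 2973 CPM in the WT soleus (median 2850.0). The groups did not overlap, and Actn2 was 7.66-fold higher in the soleus (log2 fold change 2.94 ± 0.112 SE, adjusted p = 2.51e-23). In ∆Ig3-MuSK muscle the ranges were 229.9 to 423.1 CPM in the TA and 2375 to 3475 CPM in the soleus, a 7.78-fold difference (adjusted p = 2.25e-23). Actn3 went the other way. It ranged from 4758 to 6859 CPM in the WT TA (median 5934) and from 38.9 to 1162 CPM in the WT soleus (median 214.7), a 17.9-fold lower level in the soleus (log2 fold change -4.16 ± 0.394 SE, adjusted p = 8.02e-12). The size of this difference depended on the fit, with a log2 fold change of -3.44 in DESeq2 and of -4.93 with label numbers shared between muscles as a block. The WT soleus values were the most spread of any member, with a coefficient of variation of 105% and a 29.9-fold gap between the highest and the lowest library. In ∆Ig3-MuSK, Actn3 was 12.6-fold lower in the soleus (log2 fold change -3.65 ± 0.384 SE, adjusted p = 1.32e-10), with soleus values from 153.8 to 842.3 CPM around a median of 540.9.

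The ratio of Actn3 to Actn2 within a library does not depend on its scaling. Per kilobase of exon, Actn3 counts were 11.7 to 33.9 times those of Actn2 in the WT TA (median 23.3) and 15.4 to 41.4 times in the ∆Ig3-MuSK TA (median 22.1). In the WT soleus the ratio ran from 0.0171 to 0.675 (median 0.0963) and in the ∆Ig3-MuSK soleus from 0.0647 to 0.407 (median 0.227). Actn2 thus had more counts per kilobase than Actn3 in every soleus library and fewer in every TA library. The difference between muscles in the log2 count ratio was -7.72 ± 0.526 SE in WT (-7.1 when edgeR's fold changes were subtracted) and -6.76 ± 0.289 in ∆Ig3-MuSK. Each had an adjusted p = 8.23e-05 over 8 exact 2-sided permutation tests of the ratios, which comes from the smallest p such a test can give with 9 against 9 libraries, 4.11e-05. Between genotypes, the mean log2 ratio in the soleus was -2.61 in ∆Ig3-MuSK and -3.67 in WT, a difference of 1.06 ± 0.567 SE that did not pass the test (exact permutation test, p = 0.0794, adjusted p = 0.127). Without WT soleus replicate 1 this difference was 1.4 (exact permutation test, unadjusted p = 0.0088). Leaving out each of the 18 libraries in turn gave 0.737 to 1.4, so this was the largest. In the TA the genotypes differed by 0.103 ± 0.196 SE (exact permutation test, p = 0.612).

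The myozenins (calsarcins) tether calcineurin to α-actinin. Myoz1 (chr14:20649107-20656540, minus strand) and Myoz3 (chr18:60573750-60591788, minus strand) are known from fast fibers, and Myoz2 (chr3:123006206-123035015, minus strand) from slow fibers and the heart. Myoz2 had the widest difference between muscles of the 10 members in both genotypes, with 12.4 to 38.0 CPM in the WT TA (median 17.5) and 620.6 to 749.9 CPM in the WT soleus (median 699.5). It was 35.1-fold higher in the WT soleus (log2 fold change 5.13 ± 0.192 SE, adjusted p = 1.38e-23) and 45-fold higher in the ∆Ig3-MuSK soleus (log2 fold change 5.49 ± 0.195 SE, adjusted p = 3.27e-24). Its WT soleus libraries were also the most alike of any member there, with a coefficient of variation of 6.92%. Myoz1 ranged from 1169 to 1981 CPM in the WT TA (median 1594) and from 187.5 to 540.4 CPM in the WT soleus (median 258.1), 5.47-fold lower in the soleus (log2 fold change -2.45 ± 0.149 SE, adjusted p = 3.63e-17). In ∆Ig3-MuSK it was 3.89-fold lower (log2 fold change -1.96 ± 0.146 SE, adjusted p = 1.55e-14). Myoz3 had the lowest level per kilobase of the myozenins in the soleus (5.29 CPM per kilobase in WT), with 12.2 to 25.9 CPM in WT against 45.3 to 73.7 CPM in the WT TA, 3.51-fold lower (log2 fold change -1.81 ± 0.126 SE, adjusted p = 1.66e-15). In ∆Ig3-MuSK, Myoz3 was 3.34-fold lower in the soleus (log2 fold change -1.74 ± 0.125 SE, adjusted p = 5.36e-15).

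Unlike the α-actinins, the myozenin pair was nearly level in the soleus. Per kilobase, Myoz1 counts were 0.452 to 1.58 times those of Myoz2 in the WT soleus (median 0.628) and 0.662 to 1.15 times in the ∆Ig3-MuSK soleus (median 0.896). In the TA they were 94.3 to 236 times in WT (median 161) and 115 to 481 times in ∆Ig3-MuSK (median 165). The log2 count ratio of Myoz1 to Myoz2 differed between the muscles by -7.74 ± 0.231 SE in WT and -7.54 ± 0.22 SE in ∆Ig3-MuSK (exact permutation test, adjusted p = 8.23e-05 in each, from the smallest p the test can give). Genotype differences in this ratio were 0.315 ± 0.2 SE in the soleus (exact permutation test, p = 0.134, adjusted p = 0.178) and 0.112 ± 0.248 SE in the TA (p = 0.705 by the same exact test). Without WT soleus replicate 1 the soleus difference was 0.456 (exact permutation test, unadjusted p = 0.0095), the largest of the 18 values with 1 library left out (0.231 to 0.456).

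**Figure D2:**
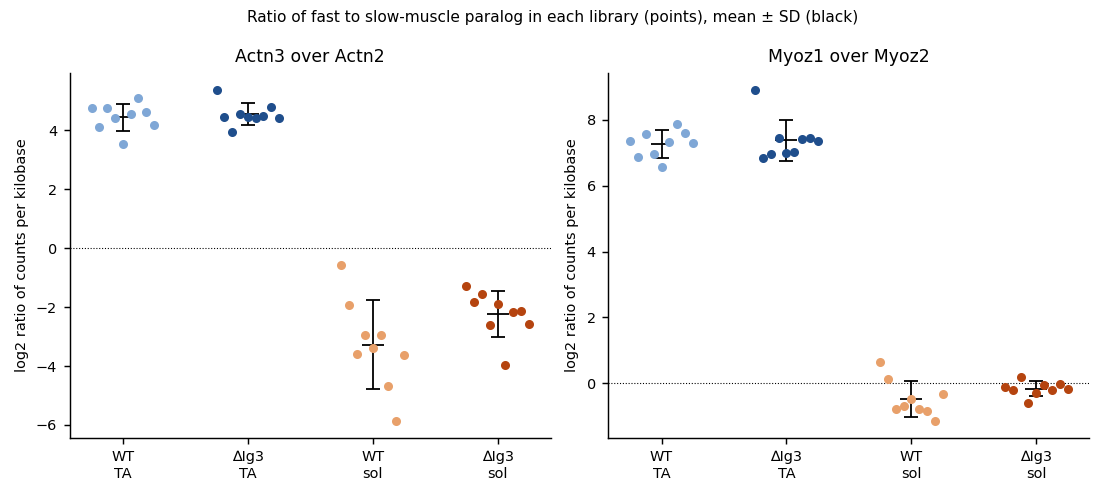
Log2 ratio of counts per kilobase of exon (y axis) of Actn3 over Actn2 (left) and Myoz1 over Myoz2 (right) in each library (points, 9 per group), with mean ± SD in black and equality as a dotted line. All TA points lie above equality in both panels, all soleus points lie below it for the α-actinins, and the soleus points lie near it for the myozenins.

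Muscle LIM protein (Csrp3) and the ankyrin repeat protein Ankrd2 shared the soleus-high pattern. Ankrd2 (chr19:42036000-42045110, plus strand) ranged from 16.6 to 66.5 CPM in the WT TA (median 32.0) and from 335.1 to 871.1 CPM in the WT soleus (median 628.4), 19.4-fold higher in the soleus (log2 fold change 4.28 ± 0.228 SE, adjusted p = 6.84e-19). In ∆Ig3-MuSK the values were 14.7 to 34.8 CPM in the TA and 406.5 to 831.8 CPM in the soleus, 22.8-fold apart (log2 fold change 4.51 ± 0.23 SE, adjusted p = 2.23e-19). Csrp3 (chr7:48830398-48848033, minus strand) ranged from 4.69 to 42.6 CPM in the WT TA (median 11.7) and from 180.5 to 471.9 CPM in the WT soleus (median 304.9), 24.3-fold higher in the soleus (log2 fold change 4.6 ± 0.305 SE, adjusted p = 4.66e-16). The difference was 35.1-fold in ∆Ig3-MuSK (log2 fold change 5.13 ± 0.314 SE, adjusted p = 4.88e-17). The highest WT TA value of each gene, 66.5 CPM for Ankrd2 and 42.6 CPM for Csrp3, came from WT TA replicate 5. Ankrd1 (chr19:36111961-36120099, minus strand), the paralog of Ankrd2 that is abundant in the heart, did not share the pattern. Its values overlapped between all groups, with medians of 12.2 CPM in the WT TA, 11.4 in the ∆Ig3-MuSK TA, 11 in the WT soleus and 14.9 in the ∆Ig3-MuSK soleus. The log2 difference between soleus and TA was -0.50 ± 0.29 SE in WT (adjusted p = 0.127) and 0.17 ± 0.29 in ∆Ig3-MuSK (adjusted p = 0.628).

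Tcap (chr11:98383811-98384953, plus strand) and Ldb3 (chr14:34526603-34588682, minus strand), which encodes ZASP, were abundant in both muscles. Per kilobase of exon, Tcap was the most abundant of the 10 in each group, with mean levels of 2172 CPM per kilobase in the WT TA, 2269 in the ∆Ig3-MuSK TA, 2718 in the WT soleus and 3465 in the ∆Ig3-MuSK soleus. Actn3 came next in the TA (2041 CPM per kilobase in WT, within 1 SD of Tcap) and Actn2 in the soleus (732 CPM per kilobase in WT). The least abundant per kilobase were Csrp3 in the TA (5.14 in WT) and Ankrd1 in the soleus (4.49 in WT). Tcap was 1.25-fold higher in the soleus than in the TA in WT (log2 fold change 0.32 ± 0.0912 SE, adjusted p = 0.00208), where the groups overlapped. It was 1.53-fold higher in ∆Ig3-MuSK (log2 fold change 0.61 ± 0.0914 SE, adjusted p = 2.98e-07), where they did not. Ldb3 was the most even member across the muscles, with medians between 1129.7 and 1273 CPM in the 4 groups and log2 differences between soleus and TA of 0.08 ± 0.0734 SE in WT (adjusted p = 0.311) and 0.11 ± 0.0734 SE in ∆Ig3-MuSK (adjusted p = 0.198).

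Between the genotypes, 1 of the 10 members was called. In the soleus, Tcap ranged from 2269 to 2929 CPM in WT (median 2577) and from 2835 to 3791 CPM in ∆Ig3-MuSK (median 3248). The ranges overlapped only between 2835 and 2929 CPM: 8 of 9 ∆Ig3-MuSK libraries lay above the highest WT library, and all 9 above the WT mean. Tcap was 1.26-fold higher in the ∆Ig3-MuSK soleus (log2 fold change 0.34 ± 0.0634 SE, adjusted p = 0.0219 in edgeR's quasi-likelihood test). Of all 19439 genes tested in the soleus, 0.365% were called higher and 0.586% lower. The call held in all 7 other ways of processing that were tried (adjusted p from 3.13e-05 to 0.0374). It held in 16 of the 18 fits that left out 1 library, and was lost without WT soleus replicate 5 (log2 fold change 0.33, adjusted p = 0.0575) or replicate 6 (0.32, adjusted p = 0.0526).

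Markers of other tissue components are given beside this result, and none of their genes below passed the test. The summed level of 8 fast-fiber genes ran from 19934 to 42621 CPM in WT (median 26163) and from 28189.5 to 40107 CPM in ∆Ig3-MuSK (median 33218), and all 8 had positive log2 differences, although 0 of the 8 were called. The summed level of 6 tendon genes ran from 279.3 to 741.8 CPM in WT (median 503.8) and from 24.4 to 496.4 CPM in ∆Ig3-MuSK (median 329.5), also with 0 calls. The 24.4 CPM came from ∆Ig3-MuSK soleus replicate 8, and the next lowest sum of that group was 230.5 CPM. Within the soleus groups, Tcap correlated with the fast-fiber sum at r = 0.433 (Spearman's rho 0.344) over 18 libraries. With the tendon sum Tcap had an r of -0.371, and a rho of -0.164. With the total counts, which were higher in ∆Ig3-MuSK, its r was 0.225 over the 9 WT libraries and 0.233 over the 9 ∆Ig3-MuSK libraries. The part of fiber composition, tendon and depth in the Tcap difference was not tested.

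The fast-fiber genes Myoz1 and Actn3 had genotype differences in the soleus at least as large as that of Tcap, with wider errors. Myoz1 ranged from 187.5 to 540.4 CPM in WT and from 294.2 to 441.8 CPM in ∆Ig3-MuSK (median 375.1), and 7 of 9 WT libraries lay below the lowest ∆Ig3-MuSK library. The log2 difference was 0.35 ± 0.171 SE and missed the threshold (adjusted p = 0.28 in edgeR's quasi-likelihood test). Without WT soleus replicate 1, whose Myoz1 level of 540.4 CPM was the highest of the soleus, the difference was 0.51 ± 0.136 SE and was called (adjusted p = 0.0385). It was also called with limma-voom and sample quality weights (adjusted p = 0.0481). That was 1 of 7 other ways of processing (adjusted p up to 0.36). Of 18 edgeR fits that left out 1 library, 1 called it (adjusted p up to 0.429). Both settings called more of all genes than the main fit, which gave 71 higher and 114 lower. With the weights these were 263 and 390, and without WT soleus replicate 1 they were 233 and 369. The Actn3 difference was 0.58 ± 0.461 SE (adjusted p = 0.524), and 1.13 ± 0.389 SE without that library (adjusted p = 0.0915). Myoz2 (0.11 ± 0.0583 SE), Myoz3 (0.12 ± 0.128 SE), Ankrd1 (0.13 ± 0.241 SE), Ankrd2 (-0.16 ± 0.165 SE), Csrp3 (-0.09 ± 0.173 SE), Actn2 (-0.03 ± 0.0694 SE) and Ldb3 (-0.08 ± 0.0648 SE) did not pass, with adjusted p between 0.322 and 0.872 in edgeR's quasi-likelihood test. At an unadjusted p under 0.05 the count was 1 of 10 members, Tcap, against 18.5% of all genes.

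**Figure D3:**
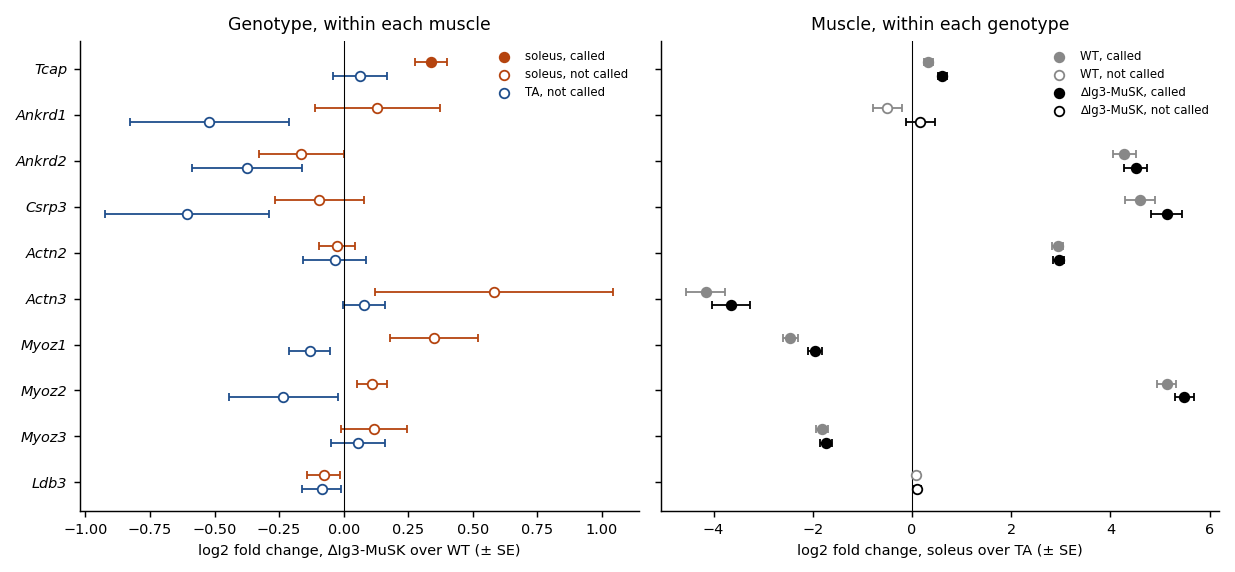
Log2 fold change ± SE (x axis) of each member between genotypes within a muscle (left) and between muscles within a genotype (right), with filled points where the change was called. Tcap in the soleus is the only filled point on the left, at 0.34. On the right, 5 members lie on the soleus side and 3 on the TA side in both genotypes.

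In the TA, 0 of the 10 members differed between genotypes, against 0.0149% of the 20075 genes tested. The count at an unadjusted p under 0.05 was also 0 of 10, against 24.1% of all genes. The other tools, DESeq2 and limma-voom, called 0 members too, although they called more of all genes. DESeq2 called 134 higher and 58 lower of 39458, and limma-voom with sample quality weights 120 and 30 of 20075. Tcap ranged from 1450.2 to 2861 CPM in the WT TA (median 1963) and from 1784 to 2465 CPM in the ∆Ig3-MuSK TA (median 2144), a log2 difference of 0.06 ± 0.104 SE (adjusted p = 0.716). The largest point estimates were those of the low-level genes Csrp3 (-0.61 ± 0.317 SE, adjusted p = 0.238), Ankrd1 (-0.52 ± 0.307 SE, adjusted p = 0.288) and Ankrd2 (-0.37 ± 0.212 SE, adjusted p = 0.271). These leaned on 1 library. Without WT TA replicate 5 they were -0.18 ± 0.215 SE for Csrp3, -0.20 ± 0.25 SE for Ankrd1 and -0.18 ± 0.172 SE for Ankrd2. Across all 10 members the log2 differences in the TA lay between -0.61 and 0.08.

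Whether the genotype difference depended on the muscle was tested as an interaction over the 36 libraries. Of the 10 members 0 passed an adjusted p of 0.05 in edgeR's quasi-likelihood test, as did 0.0% of the 20841 genes tested. The members gave 0 calls in DESeq2 and limma-voom as well, where some of all genes were called. DESeq2 called 173 positive and 139 negative interactions of 41704 genes. With the label number as a random block, limma-voom called 5 and 4 of 20841. In edgeR's test, 2 of 10 members had an unadjusted p under 0.05, against 24.9% of all genes. These were Myoz1, whose soleus difference exceeded its TA difference by 0.49 ± 0.2 SE (adjusted p = 0.133), and Tcap, by 0.29 ± 0.129 SE (adjusted p = 0.165). The Tcap call in the soleus was therefore not shown to be particular to that muscle.

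Within groups, the members varied together in blocks. To describe this, each library's log2 CPM was taken relative to its group mean and correlated over the 18 libraries of a muscle. The libraries share depth and fiber composition, and no test was made. In the soleus, Ankrd2, Csrp3, Actn2 and Ldb3 formed a block with r between 0.843 (Csrp3 and Actn2) and 0.936 (Ankrd2 and Csrp3). Myoz1 and Myoz3 (r = 0.811), Myoz1 and Actn3 (0.789) and Actn3 and Myoz3 (0.633) formed another. Ankrd1 ran against this fast block, with r of -0.751 with Actn3, -0.724 with Myoz3 and -0.684 with Myoz1, and had an r of 0.207 with its paralog Ankrd2, which was 0.513 without ∆Ig3-MuSK soleus replicate 8. Of the 45 pairs in the soleus, 7 had an r of at least 0.8 (4 without WT soleus replicate 1) and 4 had an r of -0.5 or below (7 without ∆Ig3-MuSK soleus replicate 8). Not every r was alike in the genotypes, which was not tested. Ankrd2 and Csrp3 had 0.953 in WT and 0.922 in ∆Ig3-MuSK, and Myoz1 and Myoz3 had 0.885 and 0.743. Actn3 had 0.873 and 0.435 with Myoz1, and 0.924 and 0.0336 with Myoz3. Some pairs between the blocks changed sign, such as Ankrd2 and Myoz3 (-0.745 and 0.73) and Csrp3 and Myoz1 (-0.763 and 0.65).

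The TA shared some of these relations and lacked others. Ankrd2 and Csrp3 again had an r of 0.912 and Actn3 and Myoz3 of 0.783, whereas Myoz1 had an r of -0.0563 with Actn3 and of -0.178 with Myoz3. The sign of both rested on WT TA replicate 5, without which they were 0.278 and 0.141. In the TA, Myoz2 had an r of 0.859 with Actn2, 0.792 with Ankrd2 and 0.663 with Csrp3. In the soleus these were 0.336, 0.289 and 0.161. Ldb3 was tied less to its soleus block in the TA, with r of 0.578 with Ankrd2, 0.662 with Csrp3 and 0.534 with Actn2. Without WT TA replicate 5 these were 0.237, 0.27 and 0.223. Myoz2 and Ldb3 had an r of 0.335 in the TA, and of -0.113 without that library. Of the 45 TA pairs, 2 had an r of at least 0.8 and 11 had an r of -0.5 or below, each of them with Actn3 or Myoz3 as 1 of the genes. Without WT TA replicate 5, 8 TA pairs had an r of -0.5 or below, the median r over the 45 TA pairs was 0.0964 in place of 0.342, and 9 pairs changed sign. Without TMM factors the TA median was 0.0487, and 6 of 45 TA pairs and 8 of 45 soleus pairs changed sign. The Ankrd2 and Csrp3 correlation was 0.863 in the TA without WT TA replicate 5 and 0.908 in the soleus without WT soleus replicate 1.

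**Figure D4:**
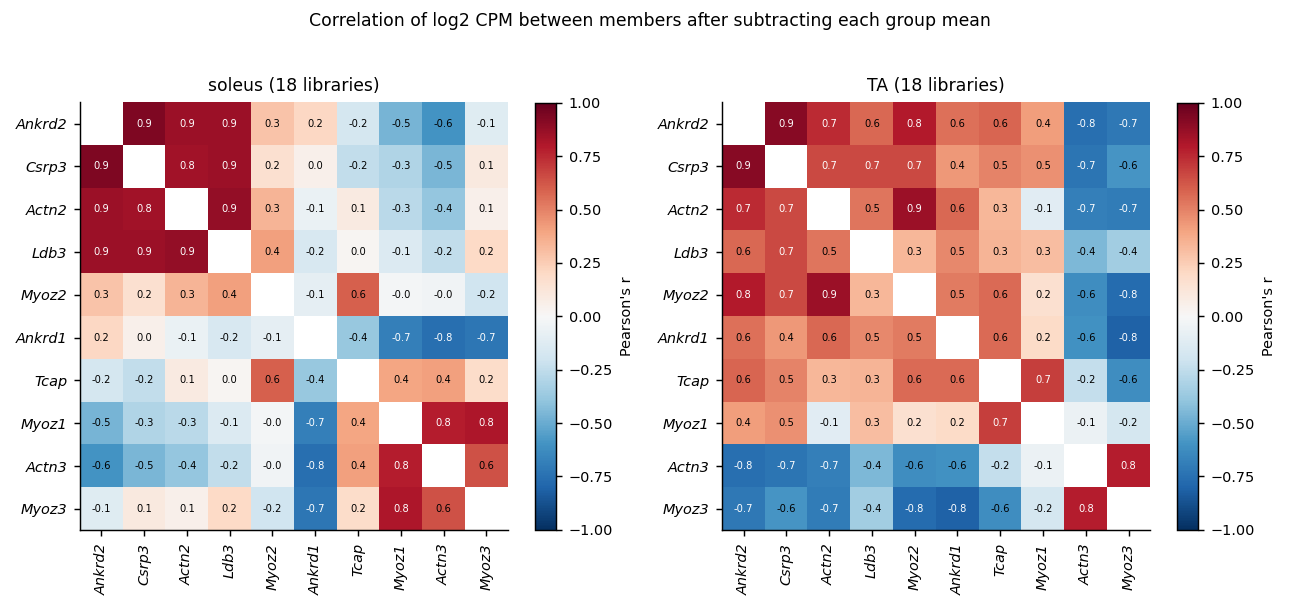
Pearson's r between the log2 CPM of each pair of members over the 18 soleus (left) and 18 TA (right) libraries, after subtracting each group's mean. Red marks positive and blue negative r. Ankrd2, Csrp3, Actn2 and Ldb3 form a red block in the soleus, with r from 0.843 to 0.936, and Actn3 and Myoz3 are blue against them in the TA.

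The fast block followed the fast-fiber genes, none of which is a member. In the soleus, Myoz1 correlated with the summed level of 8 fast-fiber genes at r = 0.983, Myoz3 at 0.829 and Actn3 at 0.791, and Ankrd1 at -0.765. WT soleus replicate 1 was at the end of this range, with a fast-fiber sum of 42621 CPM, 6113 CPM of the fast myosin Myh4, the highest Actn3 (1162 CPM) and Myoz1 (540.4 CPM) and the lowest Ankrd2 (335.1 CPM), Csrp3 (180.5 CPM) and Actn2 (2252 CPM) of its group. In the TA, the fast-fiber sum correlated with Actn3 at 0.783 but with Myoz1 at 0.181. Ankrd1 had an r of 0.712 with the summed tendon genes in the soleus (Spearman's rho 0.711) and of 0.272 in the TA (rho 0.49), a difference that was not tested. WT TA replicate 5, which had the highest Ankrd1 (48.3 CPM), Ankrd2, Csrp3, Actn2 (532.4 CPM), Myoz2, Tcap, Myoz1 and Ldb3 of the WT TA, also had the lowest Actn3 (4758 CPM) and Myoz3 (45.3 CPM). These are scaled values, and its TMM factor of 0.811 was the lowest of the 36 libraries, which raises every CPM of a library. Before scaling its Myoz1 was not the highest, at 105801 of 65883433 counted reads against 115830 of 70592201 in WT TA replicate 3. The slow-fiber sum of WT TA replicate 5, 134.4 CPM, was inside the range of the other WT TA libraries (102.7 to 183.2 CPM). Its fast-fiber sum of 75685 CPM was also inside their range (73817 to 88212 CPM). However, its Myh4 level of 11927 CPM was the lowest of any TA library, and the next lowest in the WT TA was 16107 CPM. Its Myh7 level of 1.99 CPM was the lowest as well, with 2.23 CPM next in the WT TA.

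**Figure D5:**
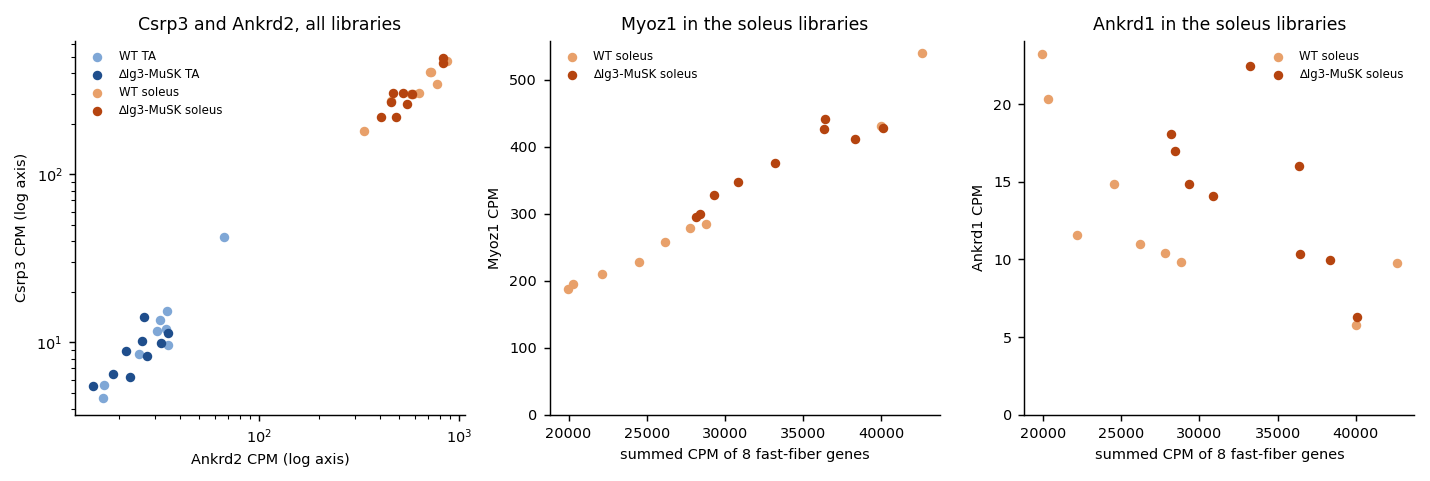
Csrp3 against Ankrd2 in all 36 libraries (left, log axes, CPM), and Myoz1 (middle) and Ankrd1 (right) in CPM against the summed CPM of 8 fast-fiber genes, in the 18 soleus libraries (linear axes). Points are libraries, colored by group. The isolated pale blue point on the left is WT TA replicate 5 (66.5 CPM of Ankrd2 and 42.6 CPM of Csrp3), and Myoz1 lies along a line with the fast-fiber sum (r = 0.983).

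The genes whose pattern was most like each member were sought among 15499 genes with a mean of at least 1 CPM, by r over the 36 libraries after subtracting group means. For Actn3 they were Mybpc2 (fast myosin-binding protein C, r = 0.963), Myh4 (0.939) and Gm44646 (0.933, with 0.951 in the soleus but 0.105 in the TA), and for Myoz1 Tpm1 (0.939), Ldha (0.935) and Eno3 (0.934), the last 2 being glycolytic enzymes. For Myoz3 they were Sema4d (0.857), Mapk14 (0.851) and Pygm (muscle glycogen phosphorylase, 0.841). Ankrd2 and Csrp3 were each other's nearest gene of all those compared (0.91), followed by Lmcd1 (0.852) and Wdr61 (0.813) for Ankrd2 and by 2010111I01Rik (0.829) and Wdr61 (0.824) for Csrp3. Actn2 was closest to Gm5864 (0.811), Got2 (0.806) and Hspb7 (0.804), Ldb3 to Alas1 (0.791), Hspb6 (0.787) and Snap47 (0.77), and Myoz2 to Dazap2 (0.813), Gbe1 (0.802) and Bdh1 (0.802). The relation of these 3 genes to Myoz2 was that of the TA, with r from 0.83 to 0.869, against 0.339 to 0.386 in the soleus. The genes nearest to Tcap were Syf2 (0.893), Ubb (0.856) and Slu7 (0.848), none of them a sarcomere gene. Those nearest to Ankrd1 were Selenom (0.776), Cilp (a cartilage and matrix protein, 0.773) and Gm6341 (0.749).

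The other genes of the Z-disc and of the pathways that meet there were counted in lists, to be read against the shares of all genes: 30.2% called higher and 27.3% lower in the WT soleus, 28.5% and 27.6% in the ∆Ig3-MuSK soleus, and unadjusted p under 0.05 between genotypes for 18.5% in the soleus and 24.1% in the TA. Of 23 further Z-disc genes, 16 were called higher and 5 lower in the WT soleus (median log2 difference 0.68, against 0.02 for all genes), and 14 and 4 in ∆Ig3-MuSK (median 0.58). Pdlim1, a LIM protein that binds α-actinin, was 152 ± 20.9 CPM (SD) in the WT soleus and 8.92 ± 1.83 in the WT TA, and its relative Pdlim7 was lower in the soleus (92.1 ± 8.99 against 231 ± 17.4 CPM). The chaperone partner Bag3 was higher in the soleus (208 ± 17.4 against 64.8 ± 7.73 CPM) and the actin-capping subunit Capza2 was lower (108 ± 8.34 against 204 ± 27.6 CPM). Between genotypes 0 of the 23 were called in either muscle, with medians of -0.07 in the soleus and -0.03 in the TA, at unadjusted p under 0.05 for 6 genes in each.

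Titin and its signalling partners numbered 15. In WT, 7 were called higher and 5 lower in the soleus, and in ∆Ig3-MuSK 6 and 5, with medians of 0.02 and 0.00 on the log2 scale. Fhl2, a LIM protein that binds titin, was 17.2 ± 3.84 CPM in the WT soleus and 0.721 ± 0.219 in the WT TA, and Nbr1, an autophagy receptor at the titin kinase, was 76.7 ± 4.57 against 52.9 ± 4.44 CPM. The muscle ring finger gene Trim55 (37.2 ± 2.57 against 54.3 ± 4.88 CPM), Ank1 (262 ± 17.8 against 506 ± 33.2 CPM) in WT and Obsl1 (36.3 ± 3.24 against 96.9 ± 13.4 CPM) in ∆Ig3-MuSK were lower in the soleus. Between genotypes 0 of the 15 were called, 3 of 15 having an unadjusted p under 0.05 in the soleus, against 18.5% of all genes, and 5 of 15 in the TA, against 24.1%. Titin itself (Ttn) was 5953 ± 1033 CPM in the ∆Ig3-MuSK TA and 3877 ± 1384 in the WT TA, a log2 difference of 0.62 ± 0.191 SE that did not pass (adjusted p = 0.145 in edgeR's quasi-likelihood test). Ttn was named for being the anchor of the members, after its values were seen.

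Of 10 calcineurin pathway genes, 5 were called higher and 3 lower in the WT soleus (median 0.25), where 30.2% and 27.3% of all genes were called. In ∆Ig3-MuSK 3 were called higher and 3 lower (median -0.09), where 28.5% and 27.6% of all genes were called. The inhibitors Rcan1 (218 ± 47.3 against 63.3 ± 21.1 CPM) and Rcan2 (138 ± 12.8 against 44.7 ± 4.23 CPM) were higher in the WT soleus. The catalytic subunits Ppp3ca (112 ± 10.8 against 172 ± 4.5 CPM) and Ppp3cb (97.8 ± 12.5 against 208 ± 15.3 CPM) were lower. By genotype 0 of the 10 were called in the soleus (4 at an unadjusted p under 0.05) or in the TA (2 at that level).

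Of 22 targets of YAP and TEAD, the factors that read mechanical load, 20 were tested in the soleus. An unadjusted p under 0.05 was seen for 5 of the 20, against 18.5% of all genes. Of the 20, 1 was called lower in ∆Ig3-MuSK (median -0.13), against 0.586% of all genes. This was Ccn1, at 31.4 ± 6.19 CPM in the ∆Ig3-MuSK soleus and 52.7 ± 13.2 in WT (log2 fold change -0.76 ± 0.142 SE, adjusted p = 0.0219). In the TA, 0 of 21 were called, with a median of 0.11 and 4 at an unadjusted p under 0.05. Between muscles, 11 were called higher and 3 lower in the WT soleus, among them Crim1 (75.9 ± 8.7 against 34.9 ± 7.51 CPM) and Gadd45a (8.48 ± 1.56 against 25.5 ± 2.33 CPM), and 8 and 3 in ∆Ig3-MuSK. The shares of all genes were 30.2% and 27.3% in WT, and 28.5% and 27.6% in ∆Ig3-MuSK. Of 14 immediate early genes, whose transcription responds rapidly to muscle activity, 2 were called lower in the ∆Ig3-MuSK soleus, against 0.586% of all genes. All 14 had negative log2 differences there (median -0.44), and 7 had an unadjusted p under 0.05, against 18.5% of all genes. The called genes were Fosl2 (12.6 ± 2.02 against 18.2 ± 3.63 CPM, adjusted p = 0.0313) and Egr3 (0.556 ± 0.148 against 1.64 ± 1.23 CPM, adjusted p = 0.0459). In the TA 0 of 14 were called, with 1 at an unadjusted p under 0.05. Within the soleus groups, none of the 10 members correlated with the summed immediate early genes beyond an r of 0.234 in size.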

How the data were processed

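RNA of whole TA and soleus muscles was sequenced without strand information, so a gene and an antisense partner cannot be told apart. The authors trimmed the reads with Trimmomatic, aligned them to mm10 (GRCm38) with GSNAP and deposited raw counts per Ensembl gene from htseq-count, 1 table per muscle. Tool versions, the annotation release and the counting mode are not given in the sources used here. Per the study's methods each library was 1 muscle of 1 animal, but TA and soleus libraries share label numbers. P-values measure the spread between these libraries.

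Counts were tested with edgeR 4.0.16 (R 4.3.3): TMM factors, genes filtered by expression (minimum count 10, total 15), quasi-likelihood test and Benjamini-Hochberg adjustment over all genes tested. A call needed an adjusted p under 0.05 and at least a 1.2-fold change, or the adjusted p alone for the interaction. Genotypes were compared within a muscle (18 libraries), and muscles and the interaction in 1 fit of 36 libraries. Log2 CPM used a prior count of 2. Ratios were tested by exact 2-sided permutation. Scripts were tested on simulated data. DESeq2 1.42.0, limma 3.58.1, RLE and upper-quartile factors, no filter, other sample sets, blocks and leaving out each library were tried.

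The text names all 10 members, from each list the 2 called genes with the smallest adjusted p in each direction of a comparison (a choice of these is printed), marker genes, and the 3 genes nearest to each member. The members and lists were chosen with earlier results of these data known.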

Additional observations from a re-analysis of the deposited data

Results flagged for a closer look

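In 48 checks of the 9 libraries of a group, 10 had 1 library whose gap to the next was large for the range of the group. Chance alone flags about 1 in 20 such checks. WT TA replicate 5 was flagged for the highest value of 5 members: Ankrd1 (48.3 CPM, next 22.09), Ankrd2 (66.54 CPM, next 35.09), Csrp3 (42.6 CPM, next 15.29), Myoz2 (38.02 CPM, next 22.83) and Ldb3 (1622 CPM, next 1246). Its TMM factor was 0.811, the lowest of the 36 libraries, and a low factor raises every CPM of a library. Before scaling the Ldb3 gap was narrower, at 86636 of 65883433 counted reads against 91241 of 70962575 in WT TA replicate 9. WT soleus replicate 1 had the lowest Actn2 (2252 CPM, next 2652) and the highest Actn3 (1162 CPM, next 572.4). ∆Ig3-MuSK TA replicate 1 had the lowest Myoz2 (6.066 CPM, next 14.93) and the highest log2 ratio of Myoz1 to Myoz2 counts (8.054, next 6.587). ∆Ig3-MuSK soleus replicate 6 had the lowest log2 ratio of Actn3 to Actn2 counts (-4.339, next -2.985).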

How the results depend on the processing

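Of the 1780 other values computed for the members' fold changes, 1760 kept their direction and side of the threshold. The members called between muscles stayed at 5 higher and 3 lower under every alternative run. The number called higher in the ∆Ig3-MuSK soleus was 2 with limma-voom quality weights and ranged from 0 (without WT soleus replicate 5 or 6) to 2 (without WT soleus replicate 1) when 1 library was left out. The calls over all genes shifted in the same direction. Genes called higher numbered 71 in the main edgeR fit and 263 with quality weights. They numbered 14 without WT soleus replicate 5, 15 without replicate 6 and 233 without replicate 1. The log2 genotype difference of Actn2 in the TA was 0.0237 with those weights and ran from -0.0821 to 0.0466 with 1 library left out, that of Myoz3 from -0.000744 to 0.111. The Actn3 interaction was -0.218 in DESeq2, and leaving out 1 library gave interactions from -0.0694 to 0.0704 for Actn2, -0.0471 to 0.0519 for Ldb3 and -0.0022 to 0.153 for Myoz3. The genotype difference in the log2 ratio of Actn3 to Actn2 ran from 0.737 to 1.4 in the soleus and from -0.00815 to 0.184 in the TA, and that of Myoz1 to Myoz2 from 0.231 to 0.456 and from -0.0799 to 0.189. The soleus α-actinin difference passed an unadjusted 0.05 in the exact permutation test without WT soleus replicate 1 or 2 or ∆Ig3-MuSK soleus replicate 6. Of 180 correlations between members recomputed by rank or without TMM factors, 20 moved by more than their error. Correlations without single libraries that stood apart were added after seeing the data. The cause of these shifts was not tested.

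With the replicate number as a block, Tcap in the soleus was 0.336 higher (adjusted p = 0.0147) and the members called were unchanged in number, at 1 in the soleus, 0 in the TA, 5 higher and 3 lower between muscles in each genotype and 0 for the interaction. Over all genes the block gave 91 calls higher and 256 lower in the soleus, against 71 and 114. The replicate numbers did not pair WT with ∆Ig3-MuSK libraries: the deviations of same-numbered libraries correlated over 0.1 in 3 of 9 soleus and 2 of 9 TA pairs. Where a label number recurs in both muscles, 2 of 8 WT and 5 of 8 ∆Ig3-MuSK pairs did so. The lowest count of any member in a library was 275 (Csrp3 in the WT TA), so each was measured well above the filter.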

Other observations

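Markers of some other cells were also called between the muscles. The shares of all genes were 30.2% called higher and 27.3% lower in the WT soleus, and 28.5% and 27.6% in the ∆Ig3-MuSK soleus. All 6 tendon and all 5 adipocyte genes were called higher in the soleus in both genotypes, as were 5 of 5 endothelial genes in WT and 4 of 5 in ∆Ig3-MuSK. Of 8 fast-fiber genes, 7 were called lower in the soleus in each genotype. In WT the soleus was called higher for 3 of 5 red blood cell genes, 2 of 4 smooth muscle genes, 2 of 5 fibroblast genes and 1 of 4 macrophage genes, and for 0 of 4 Schwann cell genes, and 1 fibroblast gene was called lower. In ∆Ig3-MuSK the counts called higher were 5 of 5 red blood cell genes, 1 of 4 Schwann cell genes and 0 of the smooth muscle, fibroblast and macrophage genes, with 1 smooth muscle and 1 fibroblast gene called lower. Between genotypes, 1 of these genes was called: Acta2, a smooth muscle actin, was lower in the ∆Ig3-MuSK soleus (log2 fold change -0.38, adjusted p = 0.0496 in edgeR's quasi-likelihood test). Of all genes, 0.586% were called lower there.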
